A study of Mus musculus with 6 samples.

Results

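The genes described here turn the electrical signal at a muscle cell's surface into a rise of cytosolic calcium and then remove that calcium again. They were chosen by name: 33 genes of excitation-contraction coupling and calcium handling, sorted by role into 16 triad genes, 12 calcium store genes and 5 surface channel genes. On the array 29 of the 33 had at least 1 row annotated with that gene alone, 14 triad, 11 store and 4 channel genes, out of 16700 rows in all. Jph2 had 2 such rows, so the 29 genes had 30 rows; the brighter row stands for Jph2 in counts. Cacnb3, Cacng6, Itpr1 and Scn4a had no such row and have no value.

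The samples were C2C12 myotubes, the multinucleate cells formed when this mouse myoblast line differentiates, infected with adenovirus that carried green fluorescent protein (eGFP) together with a FLAG-tagged protein. For 3 samples, the ATF4 group, this protein was ATF4, a stress-induced bZIP transcription factor. The other 3, the control group, received ATF4ΔbZIP, which lacks the domain that binds DNA and which the submitters call transcriptionally inactive. RNA was taken 48 hours after infection, and each sample was read on 1 array. Thus both groups carried virus, eGFP, the FLAG tag and an ATF4 protein made from the virus, and no uninfected myotubes were analysed here. The labels number the samples 1 to 3 in each group without saying whether each was a separate culture, so the p-values rest on a spread among arrays that may be technical.

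In skeletal muscle, an action potential runs along the surface and down the transverse tubules, where the voltage sensor, a calcium channel of the tubule membrane, touches the ryanodine receptor of the sarcoplasmic reticulum at a junction called the triad. The sensor opens the receptor, calcium leaves the store and starts contraction, and the SERCA pumps return it. Inside the store, calsequestrin and other acidic proteins hold the calcium, and triadin and junctin tie calsequestrin to the release channel.

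Values are levels on the log2 scale of the deposited table, where 1 unit is a factor of 2, and a change is the ATF4 mean minus the control mean. The row for Atf4 itself had 8.86 in control and 8.82 in ATF4 arrays (log2 means, n = 3 per group). Each viral construct contains Atf4 sequence, so the labels cannot be checked on it. Over all rows the limma test, with an adjusted p below 0.05, called 95 rows higher and 4 lower. When the sample number entered the fit as a replicate block, it called 400 higher and 194 lower. Same-numbered control and ATF4 arrays deviated together from their group means (correlations across rows of 0.578 to 0.782), so the numbers were read as pairs and the blocked value is given beside each result it changes.

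The number 3 arrays stood apart in both groups. Their values were compressed, with an interquartile range over all rows of 1.63 on control array 3 and 1.80 on ATF4 array 3, against 2.19 to 2.28 on the other 4 arrays. Of the 29 genes, 19 were lower on control array 3 than the mean of the other control arrays, and 18 were lower on ATF4 array 3 than the mean of the other ATF4 arrays. The shift followed brightness: the 20 genes whose rows lay above the median of all rows had a median deviation of -0.61 on control array 3 and -0.44 on ATF4 array 3. In the 9 dimmer genes it was 0.51 and 0.17. Across the 29 genes Spearman's rho between mean level and deviation was -0.64 for control and -0.56 for ATF4 array 3, and across all rows -0.58 and -0.50; these describe genes that share the same arrays.

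**Figure D1:**
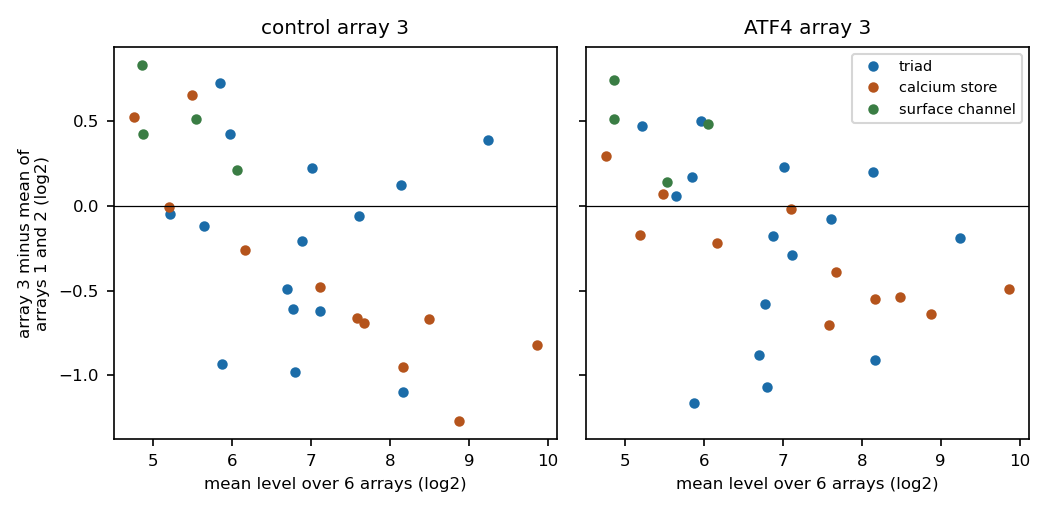
Deviation of the number 3 array from the mean of arrays 1 and 2 of its group (vertical axis, log2) against the gene's mean level over the 6 arrays (horizontal axis, log2), for the 30 rows of the calcium handling genes, coloured by role; left control, right ATF4. Bright rows lie mostly below 0 and dim rows mostly above it in both panels.

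Compared within sample numbers, myotubes with ATF4 carried less mRNA of 5 calcium handling genes, by 1.39- to 1.97-fold. These were the store proteins Hrc and Casq1, the reticulum enzyme Dhrs7c, the calsequestrin anchor Trdn and the voltage sensor adaptor Stac3. Only the calls of Hrc, Casq1 and Dhrs7c held in every blocked fit on rescaled arrays or without a numbered pair. Of the others, Trdn ended without pair 3, and Stac3 ended in all of those fits. The sensor's pore Cacna1s, the release channel Ryr1 and the pump genes Atp2a1 and Atp2a2 did not pass with or without the replicate block. Without the replicate block no calcium handling gene passed the limma test. This is 0 of 29 genes in either direction, against 0.0240% of all rows called lower and 0.569% called higher, and 5 of the 29 had an unadjusted p below 0.05, against 5.26% of rows (10 of the 29, against 17.7%, with the block). With the block, 5 of 29 genes (17.2%) fell, against 1.16% of all rows called lower, and 0 rose, against 2.40% called higher. Since the genes were chosen with earlier results of these data known, Casq1 and Stac3 among them, these shares are descriptions. Means were lower in ATF4 arrays for 25 of 29 genes (86.2%), against 58.3% of all rows, with a median change of -0.17 against -0.03. Within all 3 sample numbers the ATF4 array was lower for 13 genes (44.8%), against 24.5% of rows, and higher for 3, Jph1, Atp2a1 and Kcnj2, against 17.0% of rows. The groups did not overlap for 3 genes (10.3%), all lower in ATF4 arrays (Hrc, Dhrs7c and Stac3), against 4.62% of rows lower and 4.50% higher without overlap.

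**Figure D2:**
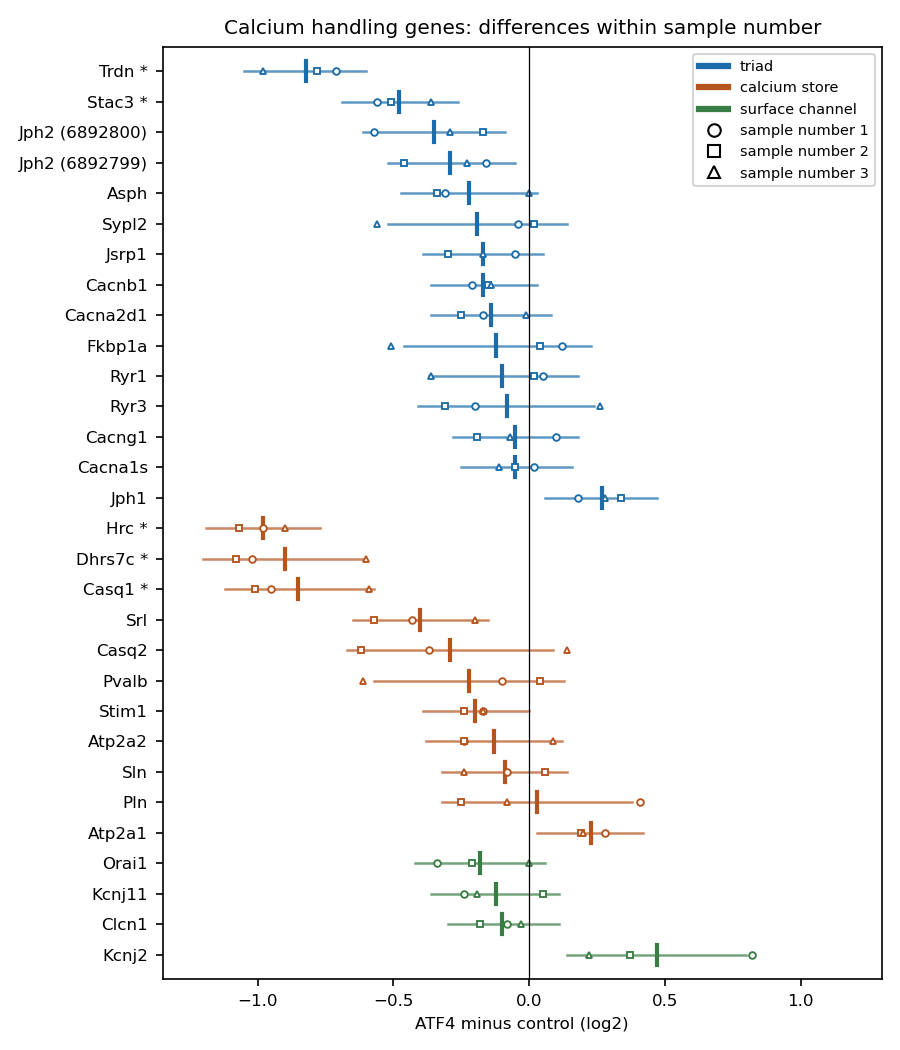
ATF4 minus control (horizontal axis, log2) for each of the 30 rows, grouped by role and sorted within it. Open symbols are the differences within sample numbers 1, 2 and 3, the thick tick is their mean, the line is the 95% interval of the blocked fit, and an asterisk marks a blocked adjusted p below 0.05; only Hrc, Casq1, Dhrs7c, Trdn and Stac3 carry one, with means of -0.98 to -0.48.

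The 3 largest changes among the 29 genes belonged to the store genes Hrc, Dhrs7c and Casq1. Hrc, the histidine-rich calcium-binding protein of the reticulum lumen (transcript cluster 6960358), read 9.26, 9.16 and 8.54 on control arrays 1 to 3 and 8.28, 8.09 and 7.64 on the ATF4 arrays (log2 levels). All ATF4 arrays lay below all control arrays. The change was -0.98 (standard error 0.24), 1.97-fold lower with ATF4, and within the sample numbers it was -0.98, -1.07 and -0.90. The limma adjusted p was 0.174 without the block and 0.00629 with it. Casq1, the calsequestrin of fast skeletal muscle (transcript cluster 6764134), read 8.99, 8.83 and 7.97 in control and 8.04, 7.82 and 7.38 in ATF4 arrays. The groups touched, because control array 3 was below ATF4 array 1, while each numbered pair was lower with ATF4. Its change of -0.85 (1.80-fold lower) had a limma adjusted p of 0.468 without and 0.0194 with the block.

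Casq2, the calsequestrin of heart and slow fibres, read 9.47, 9.41 and 8.17 in control and 9.09, 8.79 and 8.31 in ATF4 arrays. It was lower with ATF4 in numbers 1 and 2 and higher in number 3, and did not pass (change -0.29, blocked 95% interval -0.67 to 0.09). Sarcalumenin, Srl, a luminal glycoprotein that binds calcium beside the pumps, was lower within each number by 0.20 to 0.57 in size and did not pass (change -0.40, blocked limma adjusted p = 0.113). Parvalbumin, Pvalb, the cytosolic calcium buffer of fast fibres, had a change of -0.22 (blocked interval -0.57 to 0.13) on a dim row, at the 40.1th percentile of row means.

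Dhrs7c, a short-chain dehydrogenase of the reticulum membrane (transcript cluster 6781895), read 7.90, 7.55 and 7.24 in control and 6.88, 6.46 and 6.65 in ATF4 arrays. The groups did not overlap. The change was -0.90 (standard error 0.22), 1.87-fold lower, and the differences within numbers were -1.02, -1.08 and -0.60 (limma adjusted p = 0.143, and 0.0203 with the block). Hrc, Casq1 and Dhrs7c fell in each of 3 blocked fits that left out 1 numbered pair and in each of 3 blocked fits on rescaled arrays. Without the block, removing control array 3 alone also brought these 3 genes below the threshold (limma adjusted p of 0.0113, 0.0160 and 0.0185). That fit kept ATF4 array 3, which read low for Hrc (-0.54) and Casq1 (-0.55) against the other ATF4 arrays. Removing any other single array called none of the 3 genes. Without both number 3 arrays, Hrc passed (limma adjusted p = 0.0448), while Casq1 (0.0607) and Dhrs7c (0.126) did not.

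**Figure D3:**
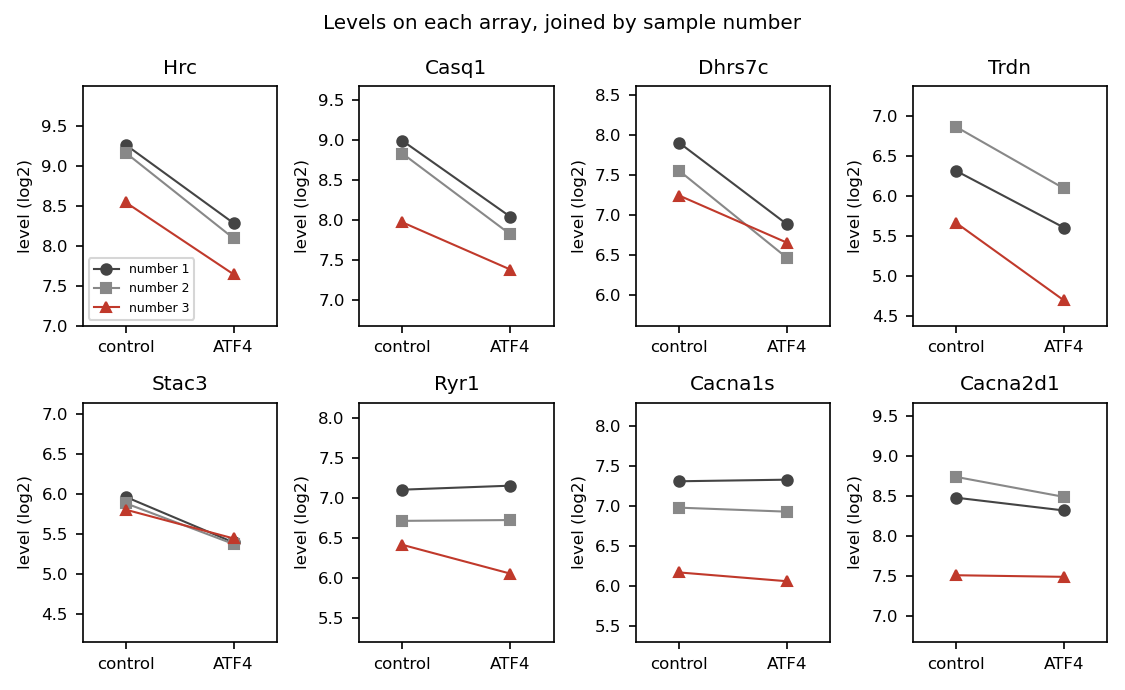
Levels (vertical axes, log2, each spanning 3 units) of 8 genes on control and ATF4 arrays, joined by sample number. The lines of Hrc, Casq1, Dhrs7c, Trdn and Stac3 all slope down, by 0.36 to 1.08 in size; those of Ryr1, Cacna1s and Cacna2d1 run from 0.05 up to 0.36 down, the steepest being number 3 of Ryr1. Number 3 is lowest among control arrays in all 8 panels and among ATF4 arrays in all but Dhrs7c and Stac3.

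The calcium pumps were not called. SERCA1, the pump of fast fibres encoded by Atp2a1, read 7.95, 7.42 and 7.02 in control and 8.23, 7.61 and 7.22 in ATF4 arrays. Each numbered pair was higher with ATF4, by 0.19 to 0.28, but the groups overlapped and the gene did not pass (change 0.23, blocked limma adjusted p = 0.228). Atp2a2, which encodes the SERCA2 pump of slow muscle and of the reticulum of most cells, read 10.33, 10.07 and 9.38 in control and 10.09, 9.84 and 9.47 in ATF4 arrays, a change of -0.13 (blocked interval -0.38 to 0.12). The small pump inhibitors sarcolipin, Sln, and phospholamban, Pln, had changes of -0.09 and 0.03, on rows at the 21.4th and 31.8th percentiles, where a change may be understated.

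The triad's voltage sensor had 1 gene that fell with the block. Stac3, an adaptor that the sensor needs in order to reach the tubule and to trigger release (transcript cluster 6771569), read 5.97, 5.89 and 5.81 in control and 5.40, 5.38 and 5.45 in ATF4 arrays. Both groups were tight and did not overlap, on a dim row at the 44.6th percentile of row means. The change was -0.48 (standard error 0.17), 1.39-fold lower (limma adjusted p = 0.517, and 0.0490 with the block). This call lay at the threshold and ended in all 3 blocked fits on rescaled arrays (0.0680 to 0.0721) and in all 3 that left out a numbered pair (0.0844 to 0.214).

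The pore of the sensor, Cacna1s (transcript cluster 6753412), read 7.31, 6.98 and 6.17 in control and 7.33, 6.93 and 6.06 in ATF4 arrays. Arrays of the same number were within 0.11 of each other, while the numbers spanned over 1 unit. The change was -0.05, with a blocked 95% interval of -0.25 to 0.16. Of its partner subunits, Cacna2d1, the extracellular alpha-2/delta-1 subunit, had a change of -0.14 (blocked interval -0.36 to 0.08). The beta-1 subunit, Cacnb1, had -0.17 (-0.36 to 0.03) and the gamma-1 subunit, Cacng1, -0.05 (-0.28 to 0.18). None of these 4 subunit genes passed in either fit.

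The release channel genes were not called either. Ryr1, the ryanodine receptor of skeletal muscle (transcript cluster 6966183), read 7.11, 6.72 and 6.42 in control and 7.16, 6.73 and 6.06 in ATF4 arrays. Numbers 1 and 2 differed by 0.05 and 0.02, and number 3 was lower with ATF4 by 0.36 in size (change -0.10, blocked interval -0.37 to 0.18). Ryr3, an isoform more abundant in developing muscle, had -0.08 (-0.41 to 0.24), and Fkbp1a, the FKBP12 protein that binds and steadies the channel, -0.12 (-0.46 to 0.23). The signs of these 3 changes turned when single arrays were left out.

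Among the proteins that build the junction, triadin stood lowest. Trdn, which anchors calsequestrin to the release channel (transcript cluster 6767057), read 6.32, 6.87 and 5.67 in control and 5.61, 6.10 and 4.70 in ATF4 arrays. The groups overlapped widely because the numbers differed by over 1 unit, yet the differences within numbers were -0.71, -0.78 and -0.98. The change of -0.82 (1.77-fold lower) had a limma adjusted p of 0.954 without the block and 0.0139 with it, so this call rests on the pairing. It held in the 3 blocked fits on rescaled arrays and ended without pair 3 (0.0537). Asph, whose row cannot separate junctin from the other proteins of the same gene, had -0.22 (blocked interval -0.47 to 0.03).

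The junctophilins, which span from the reticulum to the tubule membrane, had changes of opposite sign. Jph1, the main form of skeletal muscle, read 6.84, 6.85 and 6.23 in control and 7.01, 7.18 and 6.52 in ATF4 arrays, higher within each number by 0.18 to 0.34. Jph2, the form also used by the heart, was lower within each number on both of its rows, with changes of -0.35 on the brighter (transcript cluster 6892800) and -0.29 on the dimmer (6892799). None of the 3 rows passed with the block (limma adjusted p of 0.183, 0.171 and 0.203). Jsrp1, the JP-45 protein that binds both Cacna1s and calsequestrin, had -0.17, and Sypl2, mitsugumin 29 of the triad membranes, -0.19; neither passed.

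Of the genes that refill the store from outside, Stim1, the calcium sensor of the reticulum, had a change of -0.20 (blocked interval -0.39 to 0.00), and Orai1, the surface channel it opens, -0.18 (-0.42 to 0.06). The other surface channels with a row were the chloride channel Clcn1 and the potassium channels Kcnj2 and Kcnj11. Kcnj2, the inward rectifier Kir2.1 that helps to set the resting potential, read 5.12, 5.16 and 5.65 in control and 5.94, 5.53 and 5.87 in ATF4 arrays. It was higher with ATF4 in each number, by 0.82, 0.37 and 0.22, and did not pass (change 0.47, limma adjusted p = 0.938, and 0.146 with the block). Clcn1, which carries the chloride current that steadies the resting membrane, and Kcnj11, the pore of the ATP-sensitive potassium channel, had changes of -0.10 and -0.12 on rows at the 23.7th and 23.5th percentiles.

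By role, 2 of 14 triad genes fell with the block (median change -0.15, range -0.82 to 0.27), as did 3 of 11 calcium store genes (median -0.22, range -0.98 to 0.23) and 0 of 4 surface channel genes (median -0.11, range -0.18 to 0.47). Of all rows 1.16% were called lower with the block, and 4 channel genes are too few to set 0 calls apart from that share. Lower means were found for 13 of 14, 9 of 11 and 3 of 4 genes, against 58.3% of all rows. The median differences within sample numbers 1 to 3 were -0.11, -0.18 and -0.15 for the triad, -0.24, -0.25 and -0.20 for the store and -0.16, -0.07 and -0.01 for the channels. No test between the roles was made, and the channel genes lay on dimmer rows, none above the 55.8th percentile.

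Related genes were also compared on the same array, as the first gene's log2 level minus the second's, which does not depend on an array's centring. In 5 such pairs the exact permutation test of 3 against 3 arrays (two-sided) could not go below 0.1. Casq1 minus Casq2 differed between ATF4 and control arrays by -0.56, with no overlap of the groups and -0.58, -0.39 and -0.72 within the numbers (exact p = 0.1, 0.25 after adjustment over 5 pairs). For Atp2a1 minus Atp2a2 the difference was 0.35, with no overlap and 0.52, 0.43 and 0.12 within the numbers (exact p = 0.1, adjusted 0.25). For Jph1 minus Jph2 it was 0.61, with 0.75, 0.51 and 0.58 within the numbers and overlapping groups (exact p = 0.2, adjusted 0.333). Ryr1 minus Ryr3 (-0.01) and Sln minus Pln (-0.12) had differences of both signs within the numbers. This test takes no account of the sample numbers, and no test was made on the differences within them, which had 1 sign throughout for the Casq, Atp2a and Jph pairs.

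Of 64 other genes of calcium handling and excitation, 48 had a row. None passed without the block; with it 3 rose (6.2%), against 2.40% of all rows, and 3 fell (6.2%), against 1.16%. Atp2a3, the SERCA3 pump best known from blood and epithelial cells (transcript cluster 6782273), read 4.62, 4.72 and 5.31 in control and 6.04, 5.71 and 6.31 in ATF4 arrays. The groups did not overlap, and the change was 1.13 (standard error 0.24), 2.19-fold higher (limma adjusted p = 0.0831, and 0.0103 with the block). Its row was dim, at the 38.9th percentile of row means. Mtm1, the lipid phosphatase myotubularin needed for tubule upkeep, rose by 0.72 with the block (limma adjusted p = 0.261, and 0.0203 with it). Ppp3ca, a catalytic subunit of the calcium-dependent phosphatase calcineurin, rose by 0.53 (0.489, and 0.0397 with the block).

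The 3 that fell with the block were Atp1b1, Tmem38b and Cav3, and for each of them the groups did not overlap. Atp1b1, the beta-1 subunit of the sodium pump, fell from 7.72 ± 0.36 to 6.94 ± 0.35 (SD, n = 3 per group; limma adjusted p = 0.383, and 0.0113 with the block). Tmem38b, the TRIC-B potassium channel that balances charge as the store releases calcium, fell from 8.04 ± 0.19 to 7.34 ± 0.22 (0.265 and 0.0178). Cav3, the caveolin of muscle surface and forming tubules, fell from 7.42 ± 0.09 to 6.95 ± 0.05 (0.542 and 0.0415). Of these 6 calls, those of Atp2a3, Atp1b1, Tmem38b and Ppp3ca held in the 3 blocked fits on rescaled arrays. Cav3 ended in 2 of them and Mtm1 in 1. Without pair 3 all 6 ended (limma adjusted p of 0.0537 to 0.118). Cav3 also ended without pair 1 (0.162) and without pair 2 (0.0785), and Ppp3ca without pair 1 (0.147).

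**Figure D4:**
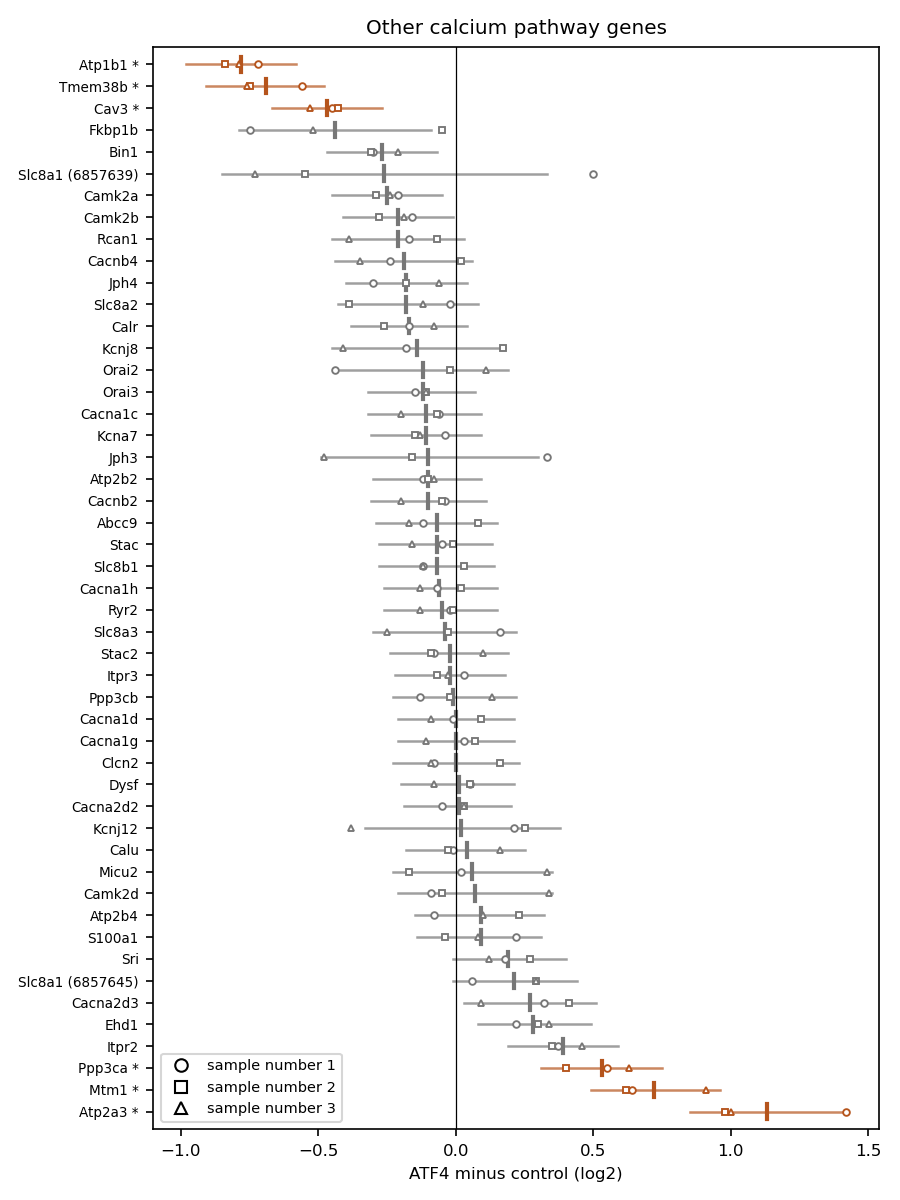
ATF4 minus control (horizontal axis, log2) for the rows of the 48 other calcium and excitation genes, sorted by change. Symbols, ticks, lines and asterisks are as in the plot of the 30 rows, and the 6 rows with an asterisk are drawn in orange.

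The regions just before the transcription start are shown for 2 genes that fell with the block, Hrc and Casq1, and for the release channel and the sensor pore, Ryr1 and Cacna1s, which did not pass. Each runs 5′ to 3′ on the gene's strand over 250 bases that end at the base before the RefSeq start (build GRCm38.p6). Capitals mark the E-box CAGCTG, a form bound by the myogenic factors. The positions are chr7:45335019-45335268 (plus strand) for Hrc, chr1:172219896-172220145 (minus strand) for Casq1, chr7:29125152-29125401 (minus strand) for Ryr1 and chr1:136052561-136052810 (plus strand) for Cacna1s. The array itself was annotated on mm9, and promoter activity was not measured.
Hrc: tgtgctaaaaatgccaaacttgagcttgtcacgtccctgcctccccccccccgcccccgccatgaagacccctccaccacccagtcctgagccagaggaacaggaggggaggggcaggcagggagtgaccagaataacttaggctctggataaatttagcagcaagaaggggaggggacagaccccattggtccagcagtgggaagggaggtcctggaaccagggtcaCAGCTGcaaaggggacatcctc
Casq1: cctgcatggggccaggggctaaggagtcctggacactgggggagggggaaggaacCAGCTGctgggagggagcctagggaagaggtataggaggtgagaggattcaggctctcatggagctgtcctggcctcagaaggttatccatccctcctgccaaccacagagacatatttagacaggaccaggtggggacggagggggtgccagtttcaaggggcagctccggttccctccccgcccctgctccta
Ryr1: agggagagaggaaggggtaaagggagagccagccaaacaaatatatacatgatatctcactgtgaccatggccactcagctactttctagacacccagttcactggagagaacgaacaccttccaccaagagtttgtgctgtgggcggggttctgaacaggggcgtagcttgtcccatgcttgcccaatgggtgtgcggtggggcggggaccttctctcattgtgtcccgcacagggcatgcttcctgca
Cacna1s: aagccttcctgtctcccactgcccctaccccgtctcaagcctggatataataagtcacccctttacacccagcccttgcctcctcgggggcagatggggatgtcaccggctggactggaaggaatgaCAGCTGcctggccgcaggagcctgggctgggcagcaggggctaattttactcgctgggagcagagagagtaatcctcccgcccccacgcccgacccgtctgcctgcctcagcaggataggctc

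This E-box begins 22 bases before the start in Hrc, 195 in Casq1 and 123 in Cacna1s, and these letters are not in the Ryr1 window. RefSeq windows were found for 17 of the 29 genes, 20 windows in all, and 10 of the 20 hold CAGCTG, against 13.0% of 32851 windows. The core of the element bound by ATF4 with C/EBP partners, TGATGNAA, is in 0 of the 20 and in 3.45% of all windows. The MEF2 consensus is in 3 of 20 (2.92% of all), the CArG box in 0 (1.47%) and TATAAA in 2 (12.4%). With shares this low over all windows, 0 in 20 says little for TGATGNAA or the CArG box. Both strands were searched for each motif. No window was found for Trdn, Dhrs7c or Stac3, which fell with the block, so the motif counts do not cover them.

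The muscle identity of the cultures was read from marker genes. The 9 measured myotube markers, of 12 listed, lay between the 69.5th and 99.7th percentiles of row means. Markers of undifferentiated myoblasts lay between the 37.8th and 94.6th percentiles and fibroblast markers between the 11.8th and 99.5th. For adipocyte markers the range was 10.6 to 70.8 and for osteoblast markers 4.8 to 45.2. Some markers of dividing myoblasts and fibroblasts were thus bright too, and how pure the cultures were was not measured. The mean level of the myotube markers per array was 8.48 to 9.04 in control and 8.23 to 8.76 in ATF4 arrays (log2). All 9 had lower means with ATF4, and the median change was -0.29. With the block 1 of the 9 fell, against 1.16% of all rows: Mymk, the fusion protein myomaker (change -0.53, limma adjusted p = 1, and 0.0392 with the block), named after its value was seen. This call ended in the blocked fit after cyclic loess (0.0525) and in all 3 that left out a numbered pair (0.0764 to 0.119). Since fewer differentiated cells and less mRNA per cell cannot be told apart in bulk RNA, the part of this shift in the lower values of Hrc, Casq1, Dhrs7c, Trdn and Stac3 was not tested.

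Markers of undifferentiated, dividing myoblasts were not higher with ATF4: the 9 measured, of 10 listed, had a mean level of 6.70 to 6.86 in control and 6.57 to 6.60 in ATF4 arrays and a median change of -0.15. With the block 1 of the 9 fell, against 1.16% of all rows: the cyclin gene Ccnd1 (change -0.59, limma adjusted p = 0.269, and 0.0228 with the block), also named after its value was seen. It held in the 3 blocked fits on rescaled arrays and ended without pair 1 (0.0759) and without pair 3 (0.0763). Lists for 3 other lineages had 0 genes past the threshold in either fit. With the block 1.16% of all rows were called lower and 2.40% higher, so 0 calls in lists this short say little. Adipocyte markers (7 of 7 measured) had a median change of 0.01, fibroblast markers (7 of 7) 0.16 and osteoblast markers (4 of 6) -0.04. Their mean levels per array were 5.08 to 5.51 in control and 5.06 to 5.39 in ATF4 arrays for adipocyte, 6.74 to 6.92 and 6.93 to 7.01 for fibroblast, and 4.46 to 5.30 and 4.58 to 5.07 for osteoblast markers. Array means of the fibroblast list lay just above, and those of the myoblast list below, the control range; the part of either in the results was not tested.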

How the data were processed

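Per the labels' protocols, TRIzol RNA was amplified by the NuGEN Pico system, converted to sense-strand cDNA and biotin-labelled. The authors deposited 16700 rows, each a transcript cluster of the mouse exon array with 1 value per sample; GCOS, RMA and build mm9 are named in the submitters' processing notes, with no version, setting or filter. The values the authors deposited were taken as log2 from their range, which no source states, and every fold depends on this. Detection calls were not used. Rows were named from the platform annotation: 14988 carried 1 symbol, 1018 several and 694 none. All 29 genes matched a RefSeq table (GRCm38.p6) by gene number, with 0 symbols changed.

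All 6 arrays were fitted with limma 3.58.1 in R 4.3.3 (lmFit, eBayes, all rows kept); tests were two-sided, Benjamini-Hochberg adjusted over the 16700 rows, at a threshold of 0.05 (4 residual and 6.3 prior degrees of freedom; 2 and 3.77 with the sample number as a block). Standard errors and 95% intervals come from these moderated fits. The titles number the samples but state no pairing, so the pairing was inferred from the same values that were tested. Deviations from group means correlated by 0.578, 0.636 and 0.782 for same-numbered arrays, over the limit of 0.1, and by -0.666 to 0.221 for others. Deviations cancel out within a group, so the values for others are tied to those for same-numbered arrays. The highest, 0.782, was for the number 3 arrays, whose values were compressed in both groups. Both fits were tested on simulated data in which same-numbered arrays were built to vary together. That run cannot say whether the real arrays were paired. The number of arrays limits the precision.

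The genes and lists were chosen with earlier results of these data known. Every listed gene with a row is named; of the other pathway list, those past the threshold in either fit; of marker lists, counts. Outside this rule, Mymk, Ccnd1, Bin1, Rcan1, Itpr2 and Sri were named after their values were seen. Alternatives were the block, 3 rescalings (quantile normalization, median centring, cyclic loess), a filter on the dimmest rows, an intensity trend, robust estimation, array weights and arrays left out.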

Additional observations from a re-analysis of the deposited data

How the results depend on the processing

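The median change of the 29 genes was negative under each alternative, at -0.12 after median centring, -0.20 with array weights and -0.24 to -0.14 with 1 array left out. The median of all rows was -0.03 without an alternative, 0.01 after median centring and -0.02 with array weights. The block, the intensity trend and robust estimation leave the changes of the 29 genes as they were, so their sign was fixed there. The number of these genes past the threshold, 0 without the block, was 5 with the replicate block, 4 with the block after quantile normalization, median centring or cyclic loess, and 3 to 4 with the block and 1 numbered pair left out. Without the block it was 2 after quantile normalization (Hrc and Dhrs7c), 1 after cyclic loess (Hrc), 1 without both number 3 arrays (Hrc), 5 with array weights and 0 to 3 with 1 array left out. Array weights called Hrc, Casq1, Dhrs7c and Stac3 lower and Kcnj2 higher. Over all rows 594 passed with the replicate block, 57 after median centring, 151 after cyclic loess, 561 with array weights, 157 without both number 3 arrays and 38 to 243 with 1 array left out, the highest without control array 3.

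Of 447 values of single rows under these alternatives, 423 kept their direction, and no value that turned was past the threshold. The block, the intensity trend, robust estimation and the dim filter leave a row's change as it was, so no direction could turn there. The fits with arrays left out share most of their arrays. Signs turned with 1 array left out for Ryr1 (-0.35 to 0.20), Ryr3 (-0.24 to 0.10), Fkbp1a (-0.23 to 0.01), Cacna1s (-0.37 to 0.31), Cacna2d1 (-0.51 to 0.16), Cacng1 (-0.16 to 0.03), Sypl2 (-0.36 to 0.05), Atp2a1 (-0.04 to 0.47), Atp2a2 (-0.40 to 0.07), Sln (-0.18 to 0.08), Pln (-0.08 to 0.11), Clcn1 (-0.27 to 0.04) and Kcnj11 (-0.37 to 0.15). Fkbp1a also turned with array weights (0.04) and without both number 3 arrays (0.08), and Ryr1 without both number 3 arrays (0.03). Among the related pairs, Ryr1 minus Ryr3 (-0.24 to 0.44) and Sln minus Pln (-0.29 to 0.08) turned with 1 array left out. The causes of these changes were not tested. The number of arrays, 3 per group, limits the precision of each value.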

Other observations

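Among the 48 other calcium and excitation genes, the groups did not overlap for 5 that were lower and 5 that were higher with ATF4, against 4.62% and 4.50% of all rows. Of these 10 genes 6 passed with the block, and the other 4, which passed in neither fit, are named after their values were seen. Bin1, the amphiphysin that bends membrane into transverse tubules, had 8.63 ± 0.14 in control and 8.36 ± 0.10 in ATF4 arrays (log2, SD, n = 3 per group; limma adjusted p = 0.160 with the block). Rcan1, the calcineurin inhibitor whose gene is itself switched on by calcineurin signalling, had a change of -0.21 (0.337 with the block). Itpr2, an inositol trisphosphate receptor, had a change of 0.39 (limma adjusted p = 0.0703 with the block), and sorcin, Sri, a calcium-binding partner of the ryanodine receptor, 0.19 (0.310 with the block).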
